A study of Mus musculus with 21 samples.

Results

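The genes Gata6, Gata4, Sox17, Sox7, Pdgfra, Foxa2, Dab2 and Foxq1, which mark primitive endoderm, were followed by RNA-seq through mouse embryonic stem cells (mESCs) depleted of the cohesin regulators PDS5A and PDS5B. They were taken by symbol from the gene counts of 21 libraries, 8 of the 23412 symbols counted. All 8 were among the 14963 genes with enough reads to be tested. The cells were v6.5, a male mESC line grown on gelatin, in 7 conditions with 3 libraries each. Wild-type (WT) cells received siGLO, a transfection control, or an siRNA pool against Pds5b. Pds5b-/- cells received siGLO. Pds5a-/- cells received siGLO or siRNAs against Pds5b, Stag1 or Stag2, of which the last 2 genes encode alternative cohesin subunits. Each siRNA was given at 50 nM and the RNA was taken 48 h later. All libraries of a knockout genotype came from 1 CRISPR clone, so an effect of the knockout and a feature of its clone cannot be told apart. What separated the 3 replicates of a condition is not given in the sources used here, so p-values measure the spread between these libraries only.

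In the blastocyst, cells of the inner cell mass become epiblast, held by NANOG, or primitive endoderm, held by GATA6, and FGF4 acting through its receptors and ERK favours the primitive endoderm choice. GATA6 comes first, PDGFRA, the receptor for platelet-derived growth factor, and SOX17 follow, and GATA4 and SOX7 come later in the committed layer. DAB2, an endocytic adaptor, is needed for that layer to sort to the surface. FOXA2 is a forkhead factor of endoderm in general, and FOXQ1 is another forkhead factor. A few mESCs in ordinary culture enter a primitive endoderm-like state, and these genes are low in the rest. In bulk RNA, more cells in that state and more RNA per cell cannot be told apart.

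Start-site sequence shows what several of these genes carry next to their transcription start, the stretch where GATA, SOX and forkhead factors of the same set could meet them. Start sites from the RefSeq promoter table (GRCm38.p6) were searched for 3 of the 8 genes, Pdgfra, Foxa2 and Dab2, with 6 start sites. The other genes of the set were left out of this search, so its counts do not describe all 8. In the bases just before each start, up to 250, both strands were searched for a GATA motif (AGATAA with its forms AGATAG, also TGATAA, also TGATAG), a forkhead motif (GTAAACA) and a SOX motif (ACAATG with its form ACAATA). Of the 6 windows, 2 held the GATA motif, against 26.6% of all 32817 windows in the table. The forkhead and SOX motifs were in 0 of the 6, against 3.16% and 17.4%. One window of each gene is printed 5′ to 3′ on the gene's strand, with the matched letters in capitals. For Foxa2, with 3 start sites, and Dab2, with 2, the window that held the match was picked after the search, and the other windows of both genes held none. The Pdgfra window (chr5:75152001-75152250, plus strand) has no match. The Dab2 window (chr15:6299539-6299787, plus strand) has TGATAA beginning at base -179 from the start. That of Foxa2 (chr2:148045465-148045714, minus strand) has AGATAA beginning at -183. It precedes an internal start and lies inside the annotated gene (chr2:148042877-148046969). The window before the gene's 5′ end held no match. A match is a run of letters and no evidence of binding.
Pdgfra: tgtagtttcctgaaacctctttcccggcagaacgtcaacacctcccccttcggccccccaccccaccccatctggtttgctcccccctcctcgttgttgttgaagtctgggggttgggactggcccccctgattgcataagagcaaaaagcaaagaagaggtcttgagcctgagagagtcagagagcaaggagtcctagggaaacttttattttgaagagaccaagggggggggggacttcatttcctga
Dab2: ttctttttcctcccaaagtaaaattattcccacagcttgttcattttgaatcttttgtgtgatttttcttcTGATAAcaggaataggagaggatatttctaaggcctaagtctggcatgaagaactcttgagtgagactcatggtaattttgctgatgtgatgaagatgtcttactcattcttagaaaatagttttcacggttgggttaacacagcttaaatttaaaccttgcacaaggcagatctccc
Foxa2: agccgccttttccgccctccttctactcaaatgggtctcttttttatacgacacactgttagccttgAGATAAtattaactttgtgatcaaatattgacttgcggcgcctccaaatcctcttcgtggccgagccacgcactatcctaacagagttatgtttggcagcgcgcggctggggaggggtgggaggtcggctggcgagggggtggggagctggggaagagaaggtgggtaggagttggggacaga

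Libraries held 17311090 to 23989198 counts each (median 19628146). RNA of the targets behaved as follows. Pds5b stood at 12.4% of the WT siGLO mean in Pds5b-/- and at 35.0% after siPds5b in WT, and it was 38.2% of the Pds5a-/- siGLO mean after siPds5b in Pds5a-/- cells. Stag1 and Stag2 were at 23.7% and 26.9% of the Pds5a-/- siGLO mean after their own siRNAs. Pds5a RNA stayed at 84.4% of WT in Pds5a-/- siGLO, a level that does not check an edited line, since edited RNA is still counted. For the primitive endoderm genes, the replicate 1 libraries stood apart from replicates 2 and 3 in 6 of the 7 conditions, and the main results are given with and without them. Leaving them out was chosen after this had been seen.

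All 8 genes were transcribed at low but countable levels. A library held between 76 and 298 reads of Gata6, 138 and 593 of Gata4, 29 and 152 of Sox17, 23 and 140 of Sox7, 85 and 362 of Pdgfra, 275 and 989 of Dab2, 46 and 178 of Foxq1, and only 6 to 56 of Foxa2. Nanog, the epiblast factor, had 2930 to 13224. Levels below are normalized counts, that is, reads scaled to a library of average size. Per kilobase of exon in WT siGLO, Dab2 (60.7 ± 14.7, SD, n = 3) and Gata4 (53.9 ± 25.4) led, and their libraries overlapped. Gata6 (20.4 ± 7.32), Sox7 (17.5 ± 5.65), Foxq1 (15.5 ± 5.85), Pdgfra (15.2 ± 6.15) and Sox17 (13.7 ± 6.26) formed a lower group whose neighbours did not differ beyond their spread. Foxa2 was last at 7.31 ± 0.777, and its libraries overlapped those of Sox17.

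**Figure D1:**
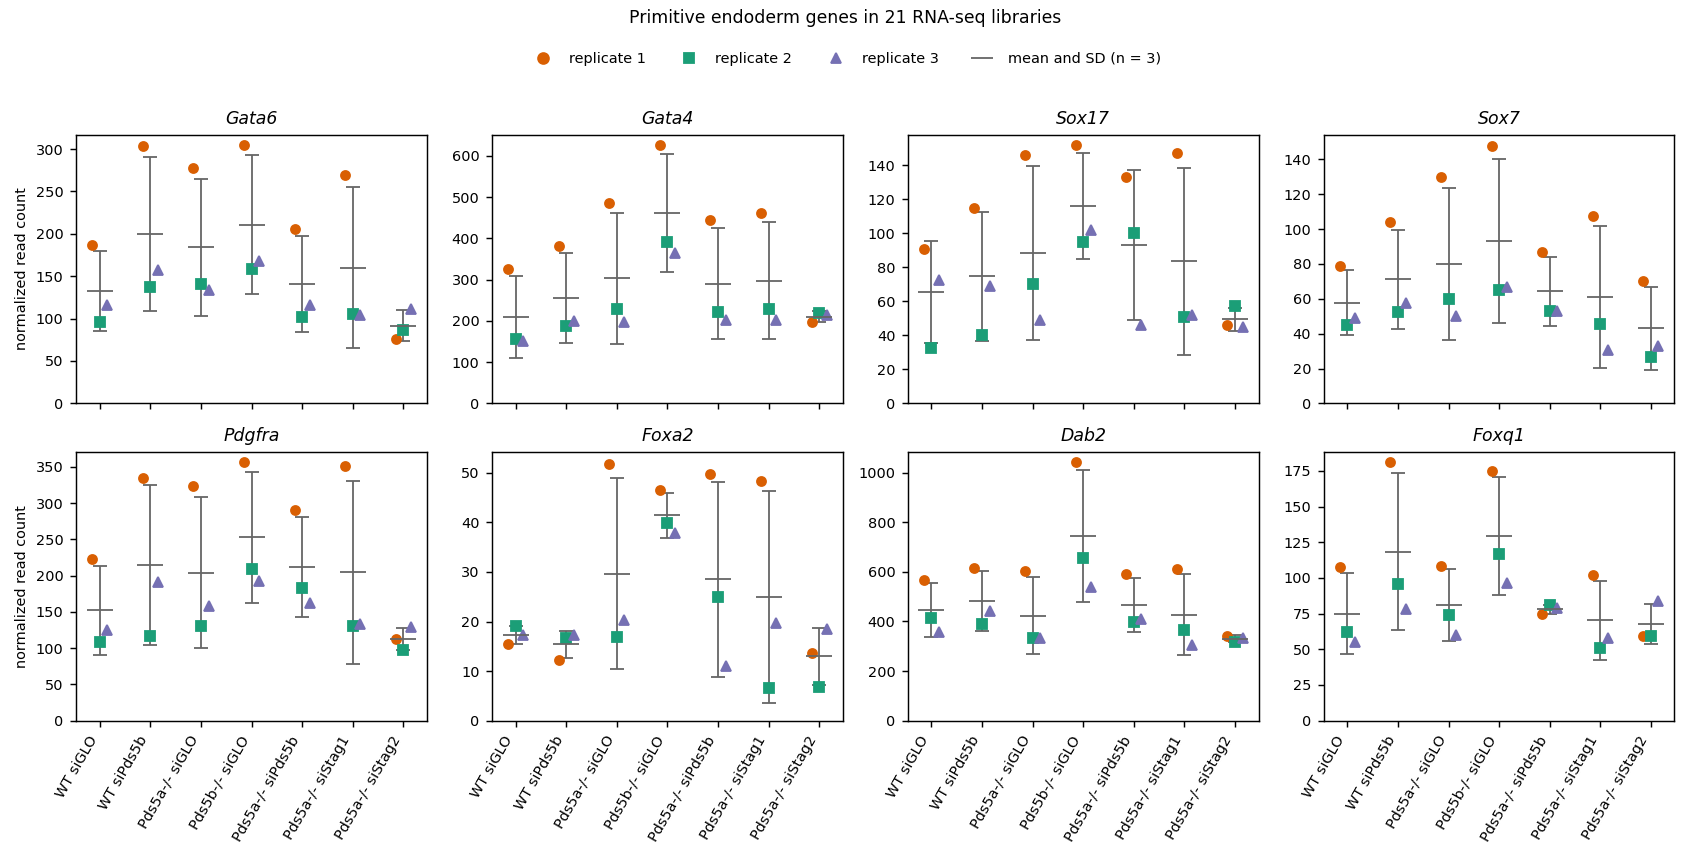
Normalized counts of the 8 genes in each of the 21 libraries, with 1 panel per gene, the 7 conditions on the x axis, a marker for each replicate number and a bar at the mean of 3. In most conditions 1 replicate stands above the other 2, Pds5b-/- siGLO has the highest mean in every panel, and Pds5a-/- siStag2 shows no raised replicate in most panels.

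The genes lie on 7 chromosomes (mm10, GENCODE M21). Gata4 (chr14:63198922-63271692, minus) and Sox7 (chr14:63943673-63950732, plus) are on the same one. Sox17 is at chr1:4490931-4497354 (minus), Pdgfra at chr5:75152292-75198215 (plus), Foxa2 at chr2:148042877-148046969 (minus), Dab2 at chr15:6299788-6440712 (plus) and Foxq1 at chr13:31556134-31560976 (plus). Gata6 spans chr18:11052064-11085635 (plus). Whether the counting used strand is not given in the sources used here, so reads of an overlapping gene cannot be separated. That matters most for Foxq1, a single-exon gene that shares 3200 bp with A530084C06Rik on the other strand. Sox17 shares 804 bp of exon with Gm37587, and the overlaps of Pdgfra, Gata6 and Dab2 are smaller.

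The main spread in these genes lay between replicates. Gata4 in WT siGLO was at 325, 155 and 151 normalized counts in replicates 1, 2 and 3, in Pds5a-/- siGLO at 486, 228 and 197, and in Pds5a-/- siStag1 at 461, 230 and 202. Gata6 was at 186, 95.8 and 116 in WT siGLO, at 277, 141 and 134 in Pds5a-/- siGLO, and at 269, 106 and 104 in Pds5a-/- siStag1. In each of these the first library was well above the others and the other two were close together. Sox7 followed the same pattern, with 79.1, 45.1 and 48.8 in WT siGLO and 130, 59.9 and 50.1 in Pds5a-/- siGLO. So did Pdgfra, with 223, 108 and 126 in WT siGLO and 351, 130 and 134 in Pds5a-/- siStag1. The endocytic adaptor Dab2 showed it less steeply, at 565, 413 and 357 in WT siGLO and 603, 334 and 333 in Pds5a-/- siGLO.

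Replicate 1 was the highest of 3 for 7 of the 8 genes in WT siGLO, WT siPds5b and Pds5a-/- siPds5b, and for 8 of 8 in Pds5a-/- siGLO, Pds5b-/- siGLO and Pds5a-/- siStag1. Among all genes tested that share was 34.4% to 37.1% in the same 6 conditions. Replicate 1 over the mean of replicates 2 and 3 had a median of 1.75 over the 8 genes in WT siGLO, 2.02 in WT siPds5b, 2.26 in Pds5a-/- siGLO, 1.70 in Pds5b-/- siGLO, 1.75 in Pds5a-/- siPds5b and 2.61 in Pds5a-/- siStag1. The median over all genes tested lay between 0.990 and 0.999 in every condition. Pds5a-/- siStag2 differed, with a median of 0.947 over the 8 genes and replicate 1 highest for 2 of 8, against 35.6% of all genes. Those 2 were Sox7, at 70.3, 26.4 and 32.7, and Dab2, at 343, 315 and 334. By gene, Sox7 and Dab2 had replicate 1 highest in 7 of 7 conditions (1.05% of genes tested), and Gata6, Gata4, Sox17 and Pdgfra in 6 (4.81% in 6 or more). Foxq1 did in 5 (13.4% in 5 or more) and Foxa2 in 4. Pooled within conditions, the SD on the log2 scale ran from 0.39 for Dab2 to 0.73 for Foxa2, against a median of 0.16 over all genes tested, and its percentile among genes of like level was 94.0 for Foxq1 and 97.2 to 99.6 for the other 7.

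**Figure D2:**
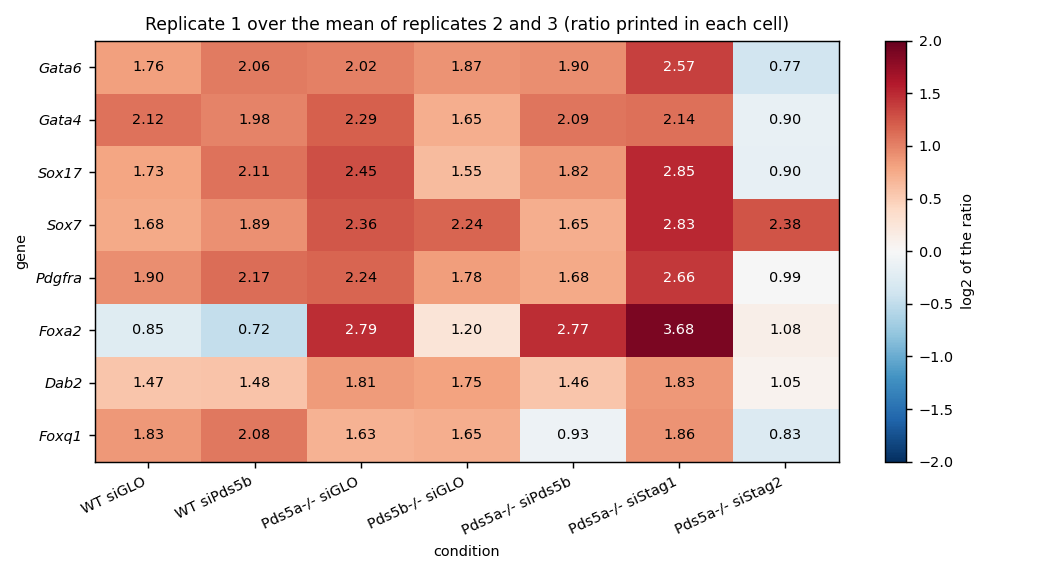
Ratio of replicate 1 to the mean of replicates 2 and 3, printed and coloured on a log2 scale, for the 8 genes (rows) in each of the 7 conditions (columns), red for above 1 and blue for below. The last column, Pds5a-/- siStag2, is pale except for Sox7 at 2.38, while the other columns are red for nearly all genes.

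Tested as a term for replicate 1 against the mean of replicates 2 and 3, across all conditions at once, 7 of the 8 genes were higher in replicate 1 and none lower (edgeR's quasi-likelihood test, Benjamini-Hochberg adjusted p under 0.01, the threshold for every call here), against 1.94% of genes tested higher and 2.95% lower. The term was 1.08 for Sox7 on the log2 scale (SE 0.11, adjusted p 9.85e-07), 0.92 for Pdgfra (SE 0.11, 1.88e-05), 0.89 for Sox17 (SE 0.18, 0.00252), 0.88 for Gata4 (SE 0.10, 1.30e-05), 0.86 for Gata6 (SE 0.11, 4.25e-05), 0.63 for Dab2 (SE 0.071, 4.84e-06) and 0.59 for Foxq1 (SE 0.13, 0.00365). Foxa2, the gene with the fewest reads, had 0.77 (SE 0.25, adjusted p 0.0515). The replicate term was not among the planned comparisons, and replicate 1 was singled out from these same libraries. The p-values of the term are therefore no independent support for the pattern. Between replicates 3 and 2 the 8 differed by -0.09 to 0.18, with adjusted p 0.997 for each. Among the genes called higher in replicate 1 and above a minimum level, Cubn had the largest term (1.13) and Sox7 was next. Cubn encodes cubilin, an endocytic receptor of the extra-embryonic endoderm. Pdgfra, Sox17, Gata4 and Gata6 were all among the first 8 of that restricted list. By size of the term among all genes tested, called or not, Sox7 ranked 24, Pdgfra 40, Sox17 46, Gata4 50 and Gata6 54. Sox17 was not called when replicate 1 of Pds5a-/- siGLO or of Pds5a-/- siStag1 was left out (adjusted p 0.0142 and 0.0113). Foxq1 was not called without replicate 1 of any of 5 conditions, WT siGLO, WT siPds5b, Pds5a-/- siGLO, Pds5b-/- siGLO and Pds5a-/- siStag1 (adjusted p 0.0132 to 0.0175). The labels do not say what separates replicate 1 from the others.

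Some other genes moved with the same libraries. Of 13 other primitive endoderm regulators and markers, 4 were higher in replicate 1 and none lower, among them Cubn, Srgn (0.93 on the log2 scale), a proteoglycan core, and Klf5 (0.25). Of 15 genes of parietal endoderm and basement membrane, 5 were higher and none lower. All 5 encode collagen IV or laminin chains: Lama1 (0.82), Col4a1 (0.46), Col4a2 (0.28), Lamb1 (0.22) and Lamc1 (0.21). Terms of the 15 ran from -0.73 to 0.82. Their summed level was highest in replicate 1 in both WT conditions and in Pds5b-/- siGLO. In every Pds5a-/- condition it was lowest in replicate 1, at 68987, 82138 and 85481 in Pds5a-/- siGLO. That sum includes the keratins Krt8 and Krt18, at 14076 ± 6918 and 11329 ± 5229 normalized counts (SD) in Pds5a-/- siGLO. It was not split by gene, so it does not show the direction of the collagen IV and laminin genes. The median term over the 15 was 0.029 and over the 13 regulators and markers 0.17, against 0.87 over the 8 and -0.0068 over all genes tested. Of 13 epiblast and naive pluripotency genes, Klf5, which is also on the list of regulators and markers, was higher. Nanog (-0.24) and Dppa3 (-0.41) were lower. Of 8 primitive streak and definitive endoderm genes, 2 were lower, Eomes (-0.42) and Fgf8 (-1.87), and Fgf8 is the far point in the plot of lineage genes. The summed level of the streak list was 670 normalized counts in replicate 1 of WT siGLO, with 1992 and 2157 in replicates 2 and 3, and 538 in replicate 1 of WT siPds5b, with 1781 and 2031, so that it was lower in the libraries where most of the 8 genes were higher. In the other 5 conditions that sum was between 281 and 484 in every library. Replicate 1 was the lowest there too, except in Pds5a-/- siStag2 (372, 401 and 325). Of 14 genes of the FGF to ERK input, Spry4 (0.29), Dusp4 (0.24) and Etv4 (0.40) were higher and Fgfr1 (-0.26) was lower. Their relatives Spry2, Dusp6 and Etv5, on the same list, were not called. Of 9 visceral endoderm genes, 2 were lower, Cited1 (-0.59) and Lefty1 (-0.36).

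The markers of 3 other cell types that use some of these genes were read in the same way. Of 7 trophectoderm genes 1, Ascl2 (-0.48), was lower in replicate 1, of 4 endothelial genes 1, Tek (0.39), was higher, and of 6 fibroblast genes none passed the test. Of 11 family relatives and ligands of the 8, 2 were lower, Pdgfrb (-0.66) and Pdgfa (-0.32). The median term was -0.62 over the streak and definitive endoderm list, -0.53 over the fibroblast list, -0.21 over the trophectoderm list, -0.17 over the relatives and ligands, -0.016 over the epiblast list, 0.085 over the FGF to ERK list, 0.12 over the visceral endoderm list and 0.33 over the endothelial list. The endothelial list summed to 1021 to 1793 normalized counts over the 21 libraries. Its genes differed widely, with Cdh5 at 1 to 9 reads a library, Tek at 125 to 387 and Pecam1 at 727 to 1747. The fibroblast list summed to 398 to 2276, with Lum at 0 to 13 reads, Col1a2 at 53 to 815 and Col1a1 at 74 to 878. Of the visceral endoderm genes, Afp had 0 to 3 reads in any library and Lefty1 3156 to 6424. The part of other cell types in the replicate difference was not tested.

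**Figure D3:**
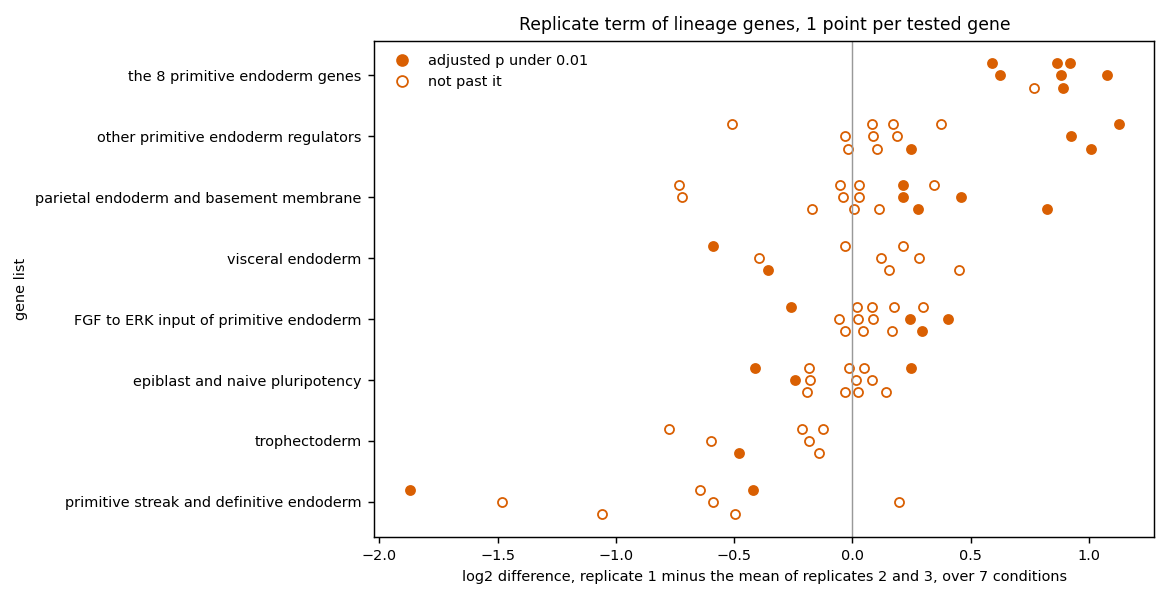
The replicate 1 term (log2, x axis) of each tested gene in 8 gene lists, 1 row per list, with filled points for genes called at adjusted p under 0.01 and open points for the rest. The 8 primitive endoderm genes lie between 0.59 and 1.08, most genes of the other lists lie nearer to 0, and Fgf8 lies at -1.87.

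Pds5b-/- cells had the highest levels. Against WT siGLO, all 8 genes had higher means, and log2 fold changes ran from 0.65 to 1.26 with a median of 0.76, and the median over all genes tested was -0.0029. None of the 8 was called by edgeR in the model of all 21 libraries, against 18.2% of genes tested (9.64% higher), and DESeq2 called none either. At an unadjusted p under 0.05 there were 4 of 8, against 42.6%. The median SE of these log2 fold changes was 0.47, and the 95% interval ran from -0.31 to 1.62 for Gata6 and from 0.14 to 2.10 for Gata4. With the replicate number as a block the median SE was 0.20. Gata4, Dab2, Pdgfra and Foxq1 were then called higher (edgeR adjusted p 4.07e-05 to 0.00874), 4 of 8 against 11.8% of genes. All 8 had an unadjusted p under 0.05 in that fit, against 45.6%. Deviations of same-numbered libraries in these 2 conditions correlated at 0.30, 0.23 and 0.089, where 0.1 was asked of each number.

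Among the GATA factors, Gata4 was at 626, 392 and 365 in Pds5b-/- and at 325, 155 and 151 in WT siGLO, with no overlap (2.18-fold, log2 1.12, SE 0.46, edgeR adjusted p 0.0759). Gata6 was at 305, 159 and 168 against 186, 95.8 and 116, and the groups overlapped (log2 0.65, SE 0.45, adjusted p 0.291). Of the SOX factors, Sox17 was at 152, 94.7 and 102 against 91.1, 32.7 and 72.8, again without overlap (log2 0.80, SE 0.52, adjusted p 0.256). Sox7 was at 148, 64.8 and 67.0 against 79.1, 45.1 and 48.8, and its groups overlapped (log2 0.68, SE 0.50, adjusted p 0.318).

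The receptor Pdgfra was at 357, 209 and 192 against 223, 108 and 126, with overlap (log2 0.72, SE 0.48, edgeR adjusted p 0.274). Foxa2 was at 46.4, 39.9 and 37.9 against 15.5, 19.2 and 17.4, without overlap and with replicate 1 close to the other two (2.39-fold, log2 1.26, SE 0.53, adjusted p 0.0774). Fitted on WT siGLO and Pds5b-/- siGLO alone, Foxa2 was called, with an edgeR adjusted p of 0.00426. It was the only 1 of the 8 called in that fit, where 2554 genes were called in either direction. Dab2 was at 1044, 654 and 538 against 565, 413 and 357 (log2 0.74, SE 0.32, adjusted p 0.0870), and Foxq1 at 175, 117 and 96.1 against 107, 62.0 and 55.4 (log2 0.78, SE 0.33, adjusted p 0.0739). In both of these the lowest Pds5b-/- library fell below the highest WT one. Without overlap were 3 of 8, against 22.8% of genes tested.

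With replicates 2 and 3 only, 4 of the 8 were called higher in Pds5b-/- than in WT siGLO, against 8.84% of genes. They were Gata4 (log2 1.31, SE 0.14, edgeR adjusted p 2.55e-07), Dab2 (0.63, SE 0.12, 0.000495), Pdgfra (0.77, SE 0.20, 0.00629) and Foxq1 (0.86, SE 0.23, 0.00693). Gata6 had 0.62 (SE 0.18, adjusted p 0.0125), Foxa2 1.09 (SE 0.45, 0.0757), Sox17 0.86 (SE 0.35, 0.0806) and Sox7 0.49 (SE 0.25, 0.162). The fold changes were close to those with all libraries, and the standard errors were smaller.

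Over the 7 conditions, Pds5b-/- siGLO had the highest mean for 8 of 8 genes, where it did for 18.8% of genes tested. Its replicates 2 and 3 were both above the other 12 libraries of those numbers for 7 of 8, against 7.81% of genes. The exception was Sox17, where a Pds5a-/- siPds5b library reached 101 and replicate 2 of Pds5b-/- stood at 94.7. Its replicate 1 was the highest of the 7 replicate 1 libraries for 6 of 8, against 18.0%. Foxa2 was highest there in Pds5a-/- siGLO and Foxq1 in WT siPds5b.

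After siPds5b in WT cells the mean was above that of WT siGLO for 7 of 8 genes, and no difference passed the test. Gata6 was at 304, 137 and 157 after siPds5b (mean 199 ± 90.8, against 133 ± 47.7 in WT siGLO), Gata4 at 382, 188 and 199, Foxq1 at 181, 96.0 and 78.1, and Foxa2 at 12.2, 16.7 and 17.2. Log2 fold changes were between -0.17 for Foxa2 and 0.66 for Foxq1 (SE 0.33), with a median of 0.29. None was called by edgeR or DESeq2, against 0.00668% of genes tested, and none had an unadjusted p under 0.05, against 4.22%. These 2 conditions shared deviations between same-numbered libraries, and 5 of the 8 were higher in all 3 same-numbered pairs, against 16.6% of genes. With the replicate number as a block, 3 had an unadjusted p under 0.05, against 5.65% of genes, namely Foxq1 (0.65, SE 0.23), Gata6 (0.56, SE 0.21) and Pdgfra (0.47, SE 0.20), and none was called (edgeR adjusted p 0.694 to 0.993). For Gata4 the 95% interval of the log2 fold change ran from -0.72 to 1.29. Both comparisons use the same WT siGLO libraries, and the difference between siPds5b and the knockout was not tested.

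Pds5a-/- siGLO means lay between those of WT siGLO and Pds5b-/- siGLO for 7 of the 8 genes. Against WT siGLO, 7 of 8 log2 fold changes were above 0, from -0.08 for Dab2 to 0.77 for Foxa2 (median 0.43), and the groups overlapped for every gene, where 20.4% of genes tested were higher without overlap and 20.4% lower. Foxa2 was at 51.8, 16.8 and 20.2, so its mean of 29.6 ± 19.3 rested on replicate 1. Sox17 was at 146, 70.1 and 49.2, and Dab2, the gene with most reads, averaged 423 ± 156 against 445 ± 108 in WT. By edgeR none was called (17.8% of genes tested), none by DESeq2, and no member had an unadjusted p under 0.05 (38.6%). Read directly against Pds5b-/-, all 8 had lower means in Pds5a-/-, by 0.19 to 0.82 on the log2 scale. None of the 8 was called (19.2% of genes), and 2, Dab2 and Foxq1, had an unadjusted p under 0.05 (42.9%). With replicates 2 and 3 only, Gata4 (log2 -0.84, edgeR adjusted p 5.47e-05) and Dab2 (-0.84, 1.97e-05) were called lower in Pds5a-/-, 2 of 8 against 8.67% of genes.

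After siPds5b in Pds5a-/- cells, the dual depletion, no gene passed the test against either control. Gata6 was at 206, 102 and 116, Gata4 at 445, 222 and 203, Pdgfra at 291, 183 and 162, and Foxa2 at 49.7, 24.9 and 11.0. Sox17, at 133, 101 and 45.8, had its replicates 1 and 2 high and replicate 3 low. Foxq1, at 74.6, 80.9 and 78.7, was the tightest, and its replicate 1 was the lowest. Against WT siGLO the log2 fold changes were 0.05 to 0.74 with a median of 0.31, and none of the 8 was called, where 32.0% of genes tested were. Against Pds5a-/- siGLO they were -0.37 to 0.14, with none called against 7.59% of genes. No member had an unadjusted p under 0.05 in either, against 51.6% and 29.3% of genes, and DESeq2 called none. The interaction, that is, the siPds5b effect in Pds5a-/- less that in WT, ran from -0.96 for Gata6 (SE 0.64) to 0.14 for Foxa2, with none called against 1.48% of genes and none at an unadjusted p under 0.05 against 17.3%.

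**Figure D4:**
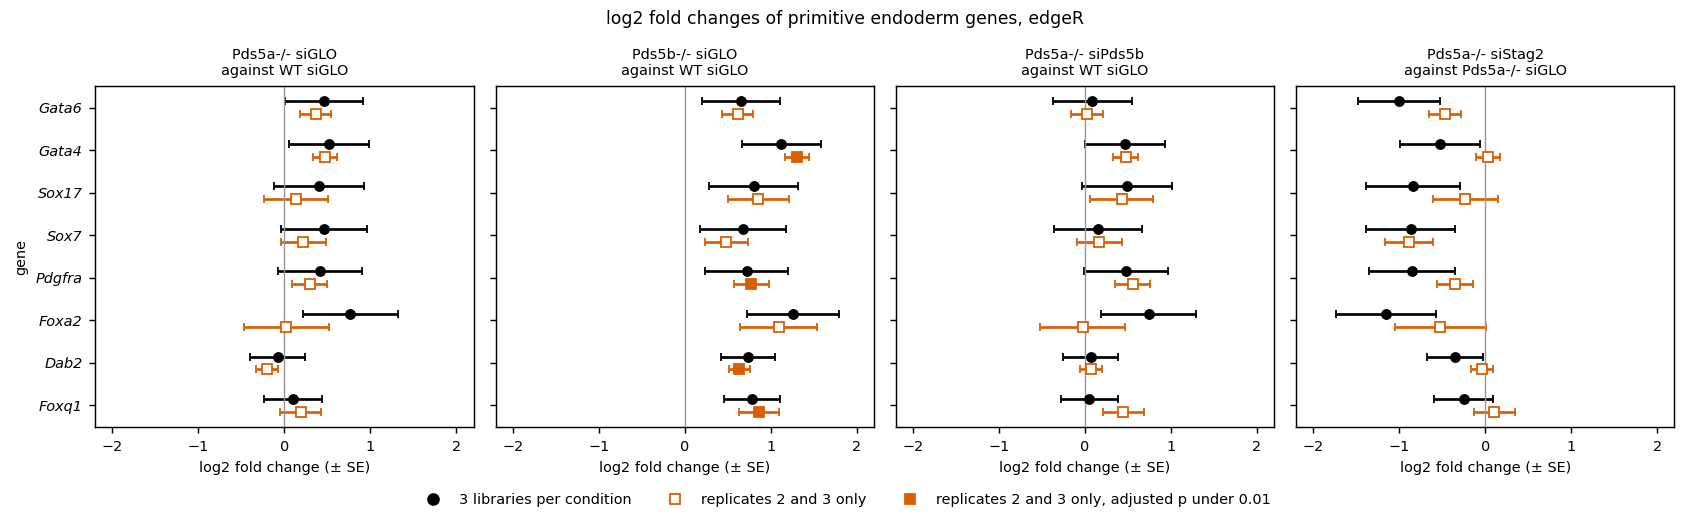
Log2 fold changes with their standard errors (bars) of the 8 genes in 4 comparisons by edgeR, in black with 3 libraries per condition and in orange with replicates 2 and 3 only, filled where the latter were called. All 8 black points lie above 0 for Pds5b-/- siGLO against WT siGLO and below 0 for siStag2 against siGLO in Pds5a-/- cells, where the orange points lie nearer to 0 for 7 of 8.

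The Stag siRNAs were given to Pds5a-/- cells only. After siStag2 the genes were at the low end: the mean was the lowest of the 7 conditions for 7 of the 8, against 13.4% of genes tested, the exception being Gata4 (210.3 ± 12.5, with WT siGLO at 210.3 ± 99.2). Gata6 was at 76.1, 87.1 and 111 after siStag2 and at 277, 141 and 134 after siGLO in the same cells, with no overlap. Pdgfra was at 112, 97.5 and 129 against 324, 131 and 158, also without overlap, as for 12.5% of genes tested in that direction. Sox7 was at 70.3, 26.4 and 32.7 against 130, 59.9 and 50.1, Sox17 at 45.9, 57.3 and 45.0 against 146, 70.1 and 49.2, and these groups overlapped. Log2 fold changes were -1.16 for Foxa2 (SE 0.58), -1.0 for Gata6 (SE 0.48), -0.87 for Sox7 (SE 0.52), -0.85 for Pdgfra (SE 0.50), -0.84 for Sox17 (SE 0.55), -0.53 for Gata4 (SE 0.47), -0.35 for Dab2 (SE 0.33) and -0.25 for Foxq1 (SE 0.34). None of the 8 was called (edgeR adjusted p 0.200 to 0.686), against 2.24% of genes tested, none had an unadjusted p under 0.05 (25.3%), and DESeq2 called none.

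That difference was called or not with the fit. In the fit with the replicate number as a block, Gata6 (log2 -0.91, edgeR adjusted p 0.00847) and Sox7 (-0.88, 0.00767) were called lower after siStag2 than after siGLO, 2 of 8 against 2.10% of genes, and 7 of 8, all but Foxq1, had an unadjusted p under 0.05, against 28.9%. With replicates 2 and 3 only, none was called (1.60% of genes): Sox7 kept -0.89 (adjusted p 0.0766), Gata6 had -0.47 (0.177) and Gata4 0.03. The replicates 2 and 3 of Gata4 were at 220 and 215 after siStag2 and at 228 and 197 after siGLO, while replicate 1 was at 196 against 486. Against WT siGLO, siStag2 gave log2 fold changes of -0.54 to -0.01, with none called against 30.1% of genes and none at an unadjusted p under 0.05 against 50.7%. With replicates 2 and 3 only, Gata4 was called higher than in WT siGLO (log2 0.50, adjusted p 0.00894), the only gene of the 8 so called, against 14.3% of genes.

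After siStag1 the genes stood near Pds5a-/- siGLO, with log2 fold changes of -0.37 to 0.01 and none called, against 0.0936% of genes, nor at an unadjusted p under 0.05 (10.7%). Against WT siGLO the range was -0.09 to 0.55 and none was called, against 20.0%, nor at an unadjusted p under 0.05 (41.0%). The siStag1 replicates lay far apart, with Foxa2 at 48.4, 6.67 and 19.7 and Sox7 at 108, 45.6 and 30.5. Between the siRNAs, siStag2 was below siStag1 for 8 of 8 genes, by 0.06 to 0.94 on the log2 scale, with none called (0.394% of genes). The genes stood higher after siPds5b than after siStag2 for 8 of 8, by 0.20 to 1.13, with none called (3.96%), and siPds5b and siStag1 differed by -0.18 to 0.19, with none called (7.36%). For these 3 comparisons 19.9%, 23.8% and 29.0% of genes had an unadjusted p under 0.05 and none of the 8 did. DESeq2 called none in any of the 5 comparisons, but it gave Foxa2 no adjusted p for siStag1 against siGLO in Pds5a-/- cells.

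Genes upstream and around the 8 did pass the test in the same libraries. Nanog averaged 10453 ± 508 normalized counts in WT siGLO, 6273 ± 544 in Pds5a-/- siGLO, 5173 ± 469 in Pds5b-/- siGLO and 3237 ± 552 in the dual depletion (log2 -0.74, -1.01 and -1.69 against WT, edgeR adjusted p 0.000206, 6.71e-06 and 3.05e-09). Fgfr2, a receptor for FGF4, averaged 68.5 ± 16.6, 468 ± 52.2, 238 ± 40.0 and 441 ± 1.19 in the same order (log2 2.75, 1.78 and 2.67, adjusted p 7.88e-10, 5.81e-07 and 2.54e-10). The ligand Fgf4 was called lower in Pds5b-/- (log2 -0.89, adjusted p 9.92e-07) and in the dual depletion (-0.34, 0.0095), and had 0.14 in Pds5a-/- (0.323). Pdgfa, a ligand of PDGFRA, was lower in all 3, by 0.72, 1.08 and 0.83 in log2 (adjusted p 0.00128, 2.41e-05 and 0.000171).

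Counts over the lists ran as follows in Pds5a-/- siGLO, Pds5b-/- siGLO and the dual depletion against WT siGLO, all by edgeR at adjusted p under 0.01, where 9.63%, 9.64% and 17.4% of all genes tested were higher and 8.12%, 8.57% and 14.6% lower. Of 14 FGF to ERK genes, 3, 4 and 3 were higher and 0, 1 and 3 lower, among them in the dual depletion Dusp4 (log2 1.26) and Spry4 (-1.05), both feedback inhibitors. The median log2 fold change of that list was 0.12, 0.25 and 0.099, with medians over all genes tested within 0.003 of 0. Of 13 other primitive endoderm regulators and markers, 0, 0 and 2 were higher and 1, 1 and 3 lower, with medians of 0.022, 0.30 and -0.050. In the dual depletion Foxa1 was at 1.55, Hnf4a at -1.65 and Tbx3 at -2.56, and Tbx3 is also on the epiblast list. Of 15 parietal endoderm and basement membrane genes, 9, 5 and 10 were higher and 0, 1 and 0 lower, led in the dual depletion by the keratins Krt18 (3.37) and Krt8 (3.00) and by Thbd (2.52), with medians of 0.69, 0.76 and 0.76. Both keratins are also known from trophectoderm and other epithelia. Of 9 visceral endoderm genes, 1, 0 and 1 were higher and 1, 0 and 2 lower, with Cited1 at 1.70, Apom at -1.67 and Trf at -1.41, and medians of -0.0096, 0.11 and 0.20. Of 13 epiblast and naive pluripotency genes, 1 was higher in each and 8, 8 and 12 were lower, with Prdm14 at -2.95, while Dppa3 was the one higher in the dual depletion, at 2.46. Its medians were -0.74, -0.70 and -1.69.

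The same counts were made over the other lists. Of 11 family relatives and ligands, 2, 2 and 4 were higher and 2, 1 and 4 lower, with Gata3 at 1.69 and Gata2 at 1.50 in the dual depletion, and medians of 0.52, 0.17 and 0.35. Of 8 primitive streak and definitive endoderm genes, none was higher and 3, 2 and 3 were lower, with Fgf8 at -5.58, Lhx1 at -2.08 and Eomes at -1.34, and medians of -1.32, -1.33 and -1.39. Of 7 trophectoderm genes, 6, 2 and 5 were higher and 0, 2 and 1 lower, with Krt7 at 3.90, Hand1 at 3.22 and Cdx2 at 2.28, and medians of 1.79, 0.43 and 1.69. Of 4 endothelial genes, 0, 0 and 1 were higher and 1, 1 and 0 lower, with Tie1 at 1.22, and medians of -0.38, -0.42 and 0.14. Of 6 fibroblast genes, none was higher and 0, 2 and 1 were lower, with Postn at -2.55, and medians of -0.48, -1.25 and -0.12. After siPds5b in WT none of the genes of these lists was called.

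Genes whose 7 condition means lay closest to those of each member, among 12022 genes above a minimum level, are given as a description over 7 points that share their libraries. Nrg1, a growth factor, was the nearest to Sox17 (Pearson's r = 0.99) and to Pdgfra (0.96). Mccc2 was nearest to Gata6 (0.99), Setdb1 to Gata4 (0.97), Hrk to Sox7 (0.97), Luc7l to Foxa2 (0.97), Caprin2 to Dab2 (0.99) and Sfswap to Foxq1 (0.97).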

How the data were processed

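RNA-seq of poly(A) RNA was measured in 21 libraries. The deposited values are raw counts of reads per gene symbol in 1 column per library. The authors aligned paired reads to mm10 with STAR and used DESeq2; the counter, annotation and strand setting are not given in the sources used here. Groups and replicate numbers came from the sample titles, and totals of 17311090 to 23989198 counts set the precision. Counts were scaled by TMM and tested with edgeR 4.0.16 in R 4.3.3 (glmQLFit with robust estimation, glmQLFTest, filterByExpr, 14963 genes) in 1 model of all libraries, with Benjamini-Hochberg adjustment over all genes tested and calls at 0.01. The fit was checked on simulated counts. Normalized counts are counts divided by effective library size and multiplied by the mean effective size. RLE scaling, no filter, DESeq2 1.42.0, a replicate block, a fit on the compared conditions only and each library left out were alternatives. The members and gene lists were chosen with earlier results of these data known. The text names all 8 members, Nanog, Fgf4, Fgfr2 and Pdgfa, and from each other list up to 3 genes called in the dual depletion by size of change. Genes named for the replicate term, from those called in each list, and for likeness were chosen after their values were seen. A further gene called in the replicate term is not reported here.

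Same-numbered libraries were checked for shared deviations over 12029 genes. Every same-number correlation exceeded 0.1 in 5 of 21 pairs of conditions, which were Pds5a-/- siGLO with each of the 3 siRNAs in that line, Pds5a-/- siPds5b with siStag1, and WT siGLO with WT siPds5b. Comparisons of those conditions are given from the model without a block, as for the rest, with the blocked value beside it where it changed a call or a count. For Pds5b-/- siGLO against WT siGLO the blocked value is given too.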

Additional observations from a re-analysis of the deposited data

How the results depend on the processing

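Counts of called members stayed at 0 in every comparison under RLE scaling, no filter, DESeq2 and each library left out. With the replicate block, 4 members were called higher in Pds5b-/- siGLO than in WT siGLO (11.8% of genes), 2 lower in Pds5a-/- siGLO than in Pds5b-/- siGLO (11.5%), 2 lower after siStag2 than after siGLO in Pds5a-/- cells, and 1 higher after siPds5b than after siStag2 (2.92%). In the pairs of conditions other than the 5 that paired, at least 1 same-number correlation did not exceed 0.1, so pairing by number was not established there. Same-numbered libraries could still share deviations. For Pds5b-/- siGLO and WT siGLO the correlations were 0.30, 0.23 and 0.089, and the replicate term across all conditions called 7 members higher. Over all 21 pairs of conditions the median correlation was 0.176 for the same number and -0.0895 for others. The block moved no other call of a member. On the compared conditions alone, 1 member was called higher in Pds5b-/- siGLO than in WT siGLO, where 2554 genes were called in either direction. With replicates 2 and 3 only, chosen after seeing the data, 4 were called there, 1 higher after siStag2 than in WT siGLO, and 2 lower in Pds5a-/- siGLO than in Pds5b-/- siGLO. The replicate term called 5 to 7 members over the libraries left out.

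Of 112 log2 fold changes, 59 changed sign when some library was left out, none of them called, and the cause was not tested. Counted once for each library left out, 63 sign changes came with a replicate 1 library, 31 with a replicate 2 and 29 with a replicate 3. No sign changed for Pds5b-/- siGLO against WT siGLO or for the replicate term. The ranges over libraries left out follow. For WT siPds5b against WT siGLO they were -0.14 to 0.75 for Gata4, -0.30 to 0.48 for Sox17, -0.084 to 0.61 for Sox7 and -0.11 to 0.33 for Dab2. For Pds5a-/- siGLO against WT siGLO they were -0.0015 to 0.98 for Gata4, -0.17 to 0.71 for Sox17, -0.085 to 0.76 for Sox7, -0.094 to 0.79 for Pdgfra, -0.43 to 0.14 for Dab2 and -0.18 to 0.46 for Foxq1. For Pds5a-/- siPds5b against WT siGLO they were -0.31 to 0.41 for Gata6, -0.0074 to 0.93 for Gata4, -0.15 to 0.45 for Sox7, -0.16 to 0.28 for Dab2 and -0.14 to 0.41 for Foxq1. For Pds5a-/- siStag1 against WT siGLO they were -0.35 to 0.59 for Gata6, -0.37 to 0.64 for Sox17, -0.62 to 0.40 for Sox7, -0.22 to 0.81 for Pdgfra, -0.36 to 0.98 for Foxa2, -0.42 to 0.15 for Dab2 and -0.47 to 0.27 for Foxq1. For Pds5a-/- siStag2 against WT siGLO they were -0.22 to 0.46 for Gata4 and -0.34 to 0.21 for Foxq1. For Pds5a-/- siPds5b against Pds5a-/- siGLO they were -0.76 to 0.048 for Gata6, -0.51 to 0.46 for Gata4, -0.27 to 0.65 for Sox17, -0.59 to 0.23 for Sox7, -0.24 to 0.56 for Pdgfra, -0.72 to 0.64 for Foxa2, -0.065 to 0.49 for Dab2 and -0.22 to 0.22 for Foxq1. For Pds5a-/- siStag1 against Pds5a-/- siGLO they were -0.81 to 0.23 for Gata6, -0.49 to 0.50 for Gata4, -0.77 to 0.50 for Sox17, -1.08 to 0.17 for Sox7, -0.63 to 0.52 for Pdgfra, -1.13 to 0.46 for Foxa2, -0.34 to 0.36 for Dab2 and -0.56 to 0.086 for Foxq1. For Pds5a-/- siStag2 against Pds5a-/- siGLO they were -0.43 to 0.020 for Foxq1. For Pds5a-/- siPds5b against Pds5a-/- siStag1 they were -0.56 to 0.44 for Gata6, -0.49 to 0.43 for Gata4, -0.20 to 0.86 for Sox17, -0.26 to 0.77 for Sox7, -0.25 to 0.69 for Pdgfra, -0.50 to 1.10 for Foxa2, -0.079 to 0.49 for Dab2 and -0.040 to 0.51 for Foxq1. For Pds5a-/- siStag2 against Pds5a-/- siStag1 they were -1.06 to 0.20 for Sox7 and -0.25 to 0.31 for Foxq1. For Pds5a-/- siGLO against Pds5b-/- siGLO they were -0.63 to 0.15 for Gata6, -0.77 to 0.26 for Sox7 and -0.82 to 0.0054 for Pdgfra. In the interaction of genotype and siPds5b they were -0.81 to 0.18 for Gata4, -0.45 to 0.48 for Sox17, -0.81 to 0.074 for Pdgfra, -0.55 to 0.81 for Foxa2 and -0.19 to 0.38 for Dab2.

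With replicates 2 and 3 only, the sign also changed, to -0.027 for Foxa2 in Pds5a-/- siPds5b against WT siGLO, -0.022 for Gata6, -0.072 for Sox17, -0.32 for Sox7 and -0.43 for Foxa2 in Pds5a-/- siStag1 against WT siGLO and 0.50 for Gata4 and 0.30 for Foxq1 in Pds5a-/- siStag2 against WT siGLO. It changed to 0.0028 for Gata4 and 0.26 for Foxq1 in Pds5a-/- siPds5b against Pds5a-/- siGLO, 0.023 for Gata4 and -0.13 for Pdgfra in Pds5a-/- siStag1 against Pds5a-/- siGLO and 0.031 for Gata4 and 0.11 for Foxq1 in Pds5a-/- siStag2 against Pds5a-/- siGLO. It changed to 0.051 for Gata6 in Pds5a-/- siPds5b against Pds5a-/- siStag1, -0.029 for Gata4 in Pds5a-/- siPds5b against Pds5a-/- siStag2 and 0.0083 for Gata4 and 0.39 for Foxq1 in Pds5a-/- siStag2 against Pds5a-/- siStag1. It changed to 0.29 for Sox17 in the interaction of genotype and siPds5b. With the replicate block it changed to 0.11 for Gata4 in Pds5a-/- siStag2 against WT siGLO, -0.018 for Pdgfra in Pds5a-/- siStag1 against Pds5a-/- siGLO and 0.0014 for Foxq1 in Pds5a-/- siStag2 against Pds5a-/- siStag1. Fewer reads limit Foxa2 most, at 6 to 56 a library.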
